A study of Papio anubis with 25 samples.

Results

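The nuclear genes of the respiratory chain and ATP synthase were examined in 5 tissues of the olive baboon (Papio anubis). Members were every gene symbol of the deposited table that begins with NDUFA, NDUFB, NDUFC, NDUFS or NDUFV and a digit, with UQCR, or with ATP5F, ATP5M or ATP5P, together with SDHA, SDHB, SDHC and SDHD. This gave 57 of 21287 genes, of which 37 carry complex I symbols, 4 encode complex II and 16 encode ATP synthase. No symbol matched complex III, which was not analysed here. The libraries came from bulk RNA of flash-frozen parotid, submandibular and sublingual gland, taken on the left side, and of pancreas and liver. Each tissue was sampled once in each of the same 5 animals, so that each group holds 5 libraries (25 in all). The first 4 baboons are labelled female and the fifth male. No treatment or allele is named in the labels. The series was designed around amylase genes, and its text names each gland against pancreas, and pancreas against liver, as the main comparisons.

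Complex I oxidises NADH and complex II, succinate dehydrogenase, oxidises succinate. Their electrons pass through complexes III and IV to oxygen while complexes I, III and IV move protons across the inner mitochondrial membrane, and ATP synthase lets the protons flow back through a rotating ring to make ATP. Complex II is at the same time an enzyme of the citric acid cycle and is encoded in the nucleus alone, whereas complexes I, III, IV and ATP synthase also hold subunits encoded in mitochondrial DNA. Hepatocytes are rich in mitochondria, and salivary and pancreatic acinar cells spend much of their ATP on making and exporting protein.

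Values were TPM (transcript abundance as a share of its library corrected for transcript length), so a few very abundant genes lower every other gene of the same library. The 10 highest genes held 66.2 to 87.7% of the parotid libraries of baboons 1, 3 and 4 but 18.0 and 24.4% of those of baboons 2 and 5. In the submandibular gland they held 57.9 to 83.2% in 4 libraries and 16.2% in baboon 2. The range was 40.3 to 46.7% in pancreas and 23.4 to 35.9% in liver. Results are therefore given for the TPM as deposited and after TMM scaling, which divides each library by a factor that centres most genes on a common level (factors of 0.339 to 2.63). Summed pancreatic acinar markers were 158200 to 195600 TPM in pancreas and at most 3736 elsewhere, and hepatocyte markers were 49320 to 84810 TPM in liver and at most 1251 elsewhere. Of the gland libraries, 5 stood apart by markers of skeletal muscle, adipocytes or lymphoid cells. Skeletal muscle markers summed to 107900 TPM in the sublingual library of baboon 2 and to at most 1020 in any other library. Adipocyte markers summed to 21650 TPM in the parotid library of baboon 2 and to 2803 and 7091 TPM in the submandibular libraries of baboons 2 and 5, while lymphoid markers summed to 954 TPM in the parotid library of baboon 5. The sublingual libraries of baboons 1 and 4 held 109600 and 47790 TPM of stratified squamous epithelium markers, against at most 721.7 TPM in any other library. They are not among the 5 and were kept in the fits that leave those 5 out, so these fits are not free of other cell types. Salivary secretory markers summed to 1446 to 2197 TPM in the 3 gland libraries of baboon 2, within the 945 to 4430 TPM of pancreas and liver, and to 4604 TPM or more in the other 12 gland libraries.

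As deposited, the median over the respiratory chain genes varied little between pancreas libraries and widely between gland libraries. Single genes such as NDUFB3 and NDUFA5 varied more between pancreas libraries, as given below. The median member stood at 43.9 to 46.1 TPM in the 5 pancreas libraries and at 80.3 to 148 TPM in liver. It ranged from 31.5 to 178 TPM in parotid, from 34.5 to 146 TPM in submandibular gland and from 56.3 to 319 TPM in sublingual gland. No pancreas library reached the lowest liver library, and parotid and submandibular gland spanned the levels of both. Every sublingual library was above the highest pancreas library. After TMM scaling the range was 52.0 to 73.6 in pancreas, 71.2 to 137 in liver, 36.9 to 94.4 in parotid, 55.3 to 89.8 in submandibular and 48.9 to 385 in sublingual gland, so the highest pancreas library then passed the lowest liver library. In bulk tissue, fewer cells of a type and less RNA per cell cannot be told apart.

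**Figure D1:**
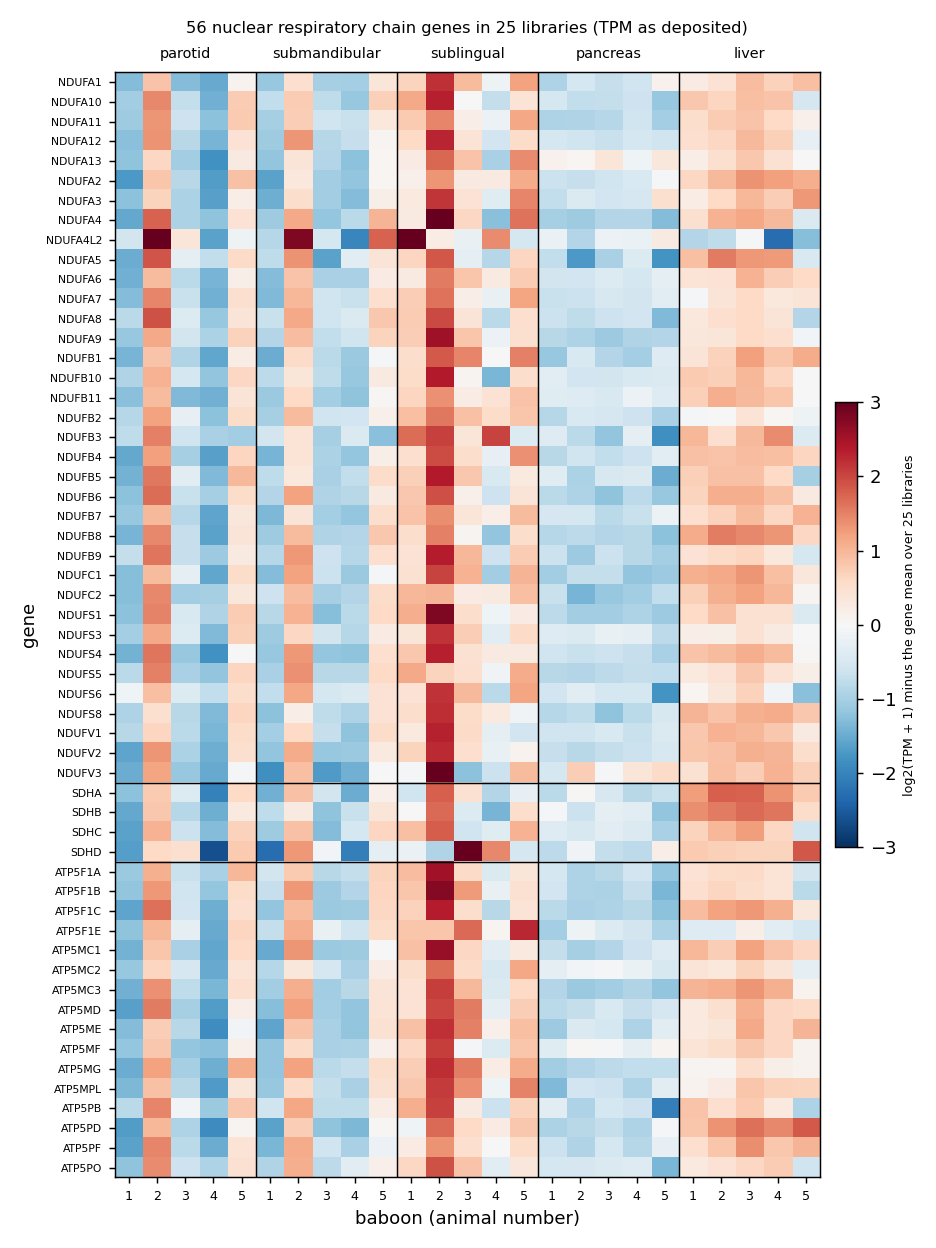
Heat map of 56 of the 57 genes (rows, grouped as NDUF, SDH and ATP synthase symbols) in 25 libraries (columns, by tissue and baboon number). Colour gives log2(TPM + 1) minus the gene's mean over all libraries, with red above and blue below; the sublingual library of baboon 2 is red in most rows, the parotid and submandibular libraries of baboons 2 and 5 stand above those of baboons 1, 3 and 4, and SDHD and NDUFA4L2 follow their own pattern.

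Pancreas was compared with liver first. Of the 57 genes, 27 were lower in pancreas and none was higher (limma on log2(TPM + 1) with the animal as a block, Benjamini-Hochberg adjusted p under 0.05 over all 14991 genes tested). The share of all tested genes called lower was 15.1%. The median log2 fold change on the log2(TPM + 1) scale was -1.27 over the members and -0.44 over all genes. In 41 of 57 genes every pancreas library was below every liver library, which held for 32.9% of all tested genes. In 54 of 57 genes the pancreas value was below the liver value in 5 of 5 animals. The share of all genes was not computed for that last count. After TMM scaling 10 members were lower, all 10 among the 27, with 15.3% of all genes called lower. The member median was then -0.63, and the median of all genes was -0.02. With TMM scaling and without the 5 gland libraries that stood apart, 24 members were lower, against 20.2% of all genes, and the member median stayed at -0.63. No pancreas or liver library had been removed. Each fit estimates a gene's spread from all its libraries, glands included, so these counts do not measure the spread of pancreas and liver alone. For ATP5PD the fitted change stayed at -1.44 while its SE fell from 0.367 to 0.227. Without the animal term 16 genes were called (28.1% of members, against 13.5% of all genes called lower). The count of 27 was 15 without baboon 1, 28 without baboon 2, 4 without baboon 3, 14 without baboon 4 and 23 without baboon 5. Without baboon 3 the member share of 7.02% was below the 9.38% of all genes called lower, and in the other 4 fits the member share was 24.6 to 49.1%, against 10.7 to 15.6% of all genes.

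Complex II carried 2 of the lower genes. SDHA encodes the flavoprotein that oxidises succinate. Its level was 28.9, 52.1, 36.5, 28.3 and 31.8 TPM in the pancreas of baboons 1 to 5 and 123, 178, 176, 132 and 89.0 TPM in liver. Every liver library lay above every pancreas library. The log2 fold change was -1.94 (SE 0.43, limma adjusted p = 0.00166) as deposited and -1.27 (SE 0.39, adjusted p = 0.0184) after TMM scaling, and the adjusted p stayed between 6.35e-06 and 0.0305 over 15 alternative settings. SDHB, the iron-sulfur subunit that passes electrons on from SDHA, stood at 43.4, 28.4, 37.2, 35.8 and 19.4 TPM in pancreas and at 121, 136, 148, 138 and 66.7 TPM in liver. Its groups did not overlap either, and the fitted difference was -1.86 on that scale (SE 0.50, limma adjusted p = 0.00892) as deposited. After TMM scaling SDHB was at -1.195 with an adjusted p of 0.0772, within a range of 2.42e-05 to 0.0813 over the alternatives. SDHC, a membrane anchor of the complex, was at 20.5 to 32.3 TPM in pancreas and 26.9 to 101 TPM in liver, and it was not called (log2 fold change -1.12, limma adjusted p = 0.155). The other anchor, SDHD, is described separately because its level stands far from those of its partners.

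In complex I, 4 of the 6 core genes in the table and 13 of 29 accessory genes were lower in pancreas as deposited. After TMM scaling no core gene and 6 accessory genes were called. Among core genes NDUFS8, which holds iron-sulfur clusters next to the quinone site, was at 16.3, 17.5, 12.7, 17.0 and 21.6 TPM in pancreas and at 62.1, 55.7, 64.7, 66.9 and 53.7 TPM in liver. The lowest liver library was above the highest pancreas library by more than either group's range, and the fitted change was -1.79 (SE 0.42, limma adjusted p = 0.00341). NDUFV2 (-1.53), NDUFS1 (-1.36) and NDUFV1 (-1.34), all of the arm that takes electrons from NADH, were the other core genes called. NDUFS1 was scarce, at 2.62 to 3.49 TPM in pancreas and 4.67 to 13.04 TPM in liver. NDUFS3, a core subunit of the matrix arm, was not called (-0.63, limma adjusted p = 0.363) and turned to 0.03 after TMM scaling.

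The accessory gene furthest below liver was NDUFB8, a subunit of the membrane arm. It stood at 61.8, 64.9, 61, 63.1 and 47.1 TPM in pancreas and at 246, 329, 307, 284 and 174 TPM in liver. The 5 pancreas libraries lay close together, with baboon 5 lowest in both tissues, and the groups did not overlap. The fitted change was -2.12 (SE 0.48, limma adjusted p = 0.00197), or -1.45 (SE 0.38, adjusted p = 0.00715) with TMM scaling, and the adjusted p was at most 0.0261 over 15 alternatives. NDUFA5, an accessory subunit of the matrix arm, was at 35.3, 17.1, 29.4, 44.4 and 16.4 TPM in pancreas and at 111, 177, 148, 145 and 43.1 TPM in liver. Its groups overlapped through the liver of baboon 5, and its fitted change was -2.05 (SE 0.58, limma adjusted p = 0.0133). NDUFA4, which carries a complex I name although textbooks now place it in complex IV, was at 104 to 140 TPM in pancreas and 192 to 576 TPM in liver, and its fitted change of -1.67 (SE 0.58, limma adjusted p = 0.0458) was not called after TMM scaling.

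In ATP synthase 7 of 16 genes were lower as deposited, and 3 after TMM scaling (1 each in the F1 head, the stalk and the c ring). ATP5PD, subunit d of the peripheral stalk that holds the catalytic head still, was at 42.4, 46.6, 50.2, 43.2 and 80.9 TPM in pancreas and at 149, 215, 262, 227 and 298 TPM in liver. Baboon 5 was highest in both tissues, and the groups did not overlap. The fitted change was -2.11 (SE 0.41, limma adjusted p = 0.000497) as deposited and -1.44 (SE 0.37, adjusted p = 0.00538) after TMM scaling, with adjusted p of 4.51e-07 to 0.0125 over 15 alternatives. ATP5PF, also of the stalk, was lower as deposited (-1.55, limma adjusted p = 0.0147) but not after TMM scaling. ATP5PB (-1.196) and ATP5PO (-0.96) were not called.

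Of the F1 head, ATP5F1C, the rotor subunit gamma, was the one gene called. It was at 21.6, 19.1, 19.7, 21.2 and 15.8 TPM in pancreas and at 74.1, 89.4, 96.5, 81.5 and 49.2 TPM in liver. The groups did not overlap (log2 fold change -1.92, SE 0.50, limma adjusted p = 0.00780). ATP5F1A and ATP5F1B encode the alpha and the catalytic beta subunits that form the head itself. ATP5F1A was at 52.1, 39.6, 42.0, 50.5 and 33.2 TPM in pancreas and at 102, 111, 113, 101 and 51.4 TPM in liver, where baboon 5 lay below the highest pancreas library. Its fitted change of -1.09 (SE 0.49, limma adjusted p = 0.137) and that of ATP5F1B, -1.16 (SE 0.50, adjusted p = 0.124), were not called. ATP5F1E, subunit epsilon of the rotor, was at 315 to 569 TPM in pancreas and 444 to 728 TPM in liver (-0.33, limma adjusted p = 0.686), and turned to 0.35 after TMM scaling.

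The c ring, through which protons turn the rotor, is encoded by 3 genes for the same mature protein. ATP5MC3 was at 73.5, 62.6, 65.7, 72.6 and 59.4 TPM in pancreas and at 275, 290, 340, 286 and 147 TPM in liver. The groups did not overlap, and the fitted change was -1.94 (SE 0.48, limma adjusted p = 0.00499), and of -1.27 with an adjusted p of 0.0223 after TMM scaling (3.01e-05 to 0.0513 over the alternatives). ATP5MC1 was lower as deposited only (-1.60, limma adjusted p = 0.0262). ATP5MC2 was at 96.2, 111, 115, 103 and 83.8 TPM in pancreas and at 153, 146, 187, 154 and 95.4 TPM in liver, where the library of baboon 5 lay within the pancreas range. It was not called (-0.50, limma adjusted p = 0.460), and its direction turned to 0.17 after TMM scaling. Of the 5 small membrane subunits, ATP5ME and ATP5MPL were lower as deposited and none after TMM scaling.

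**Figure D2:**
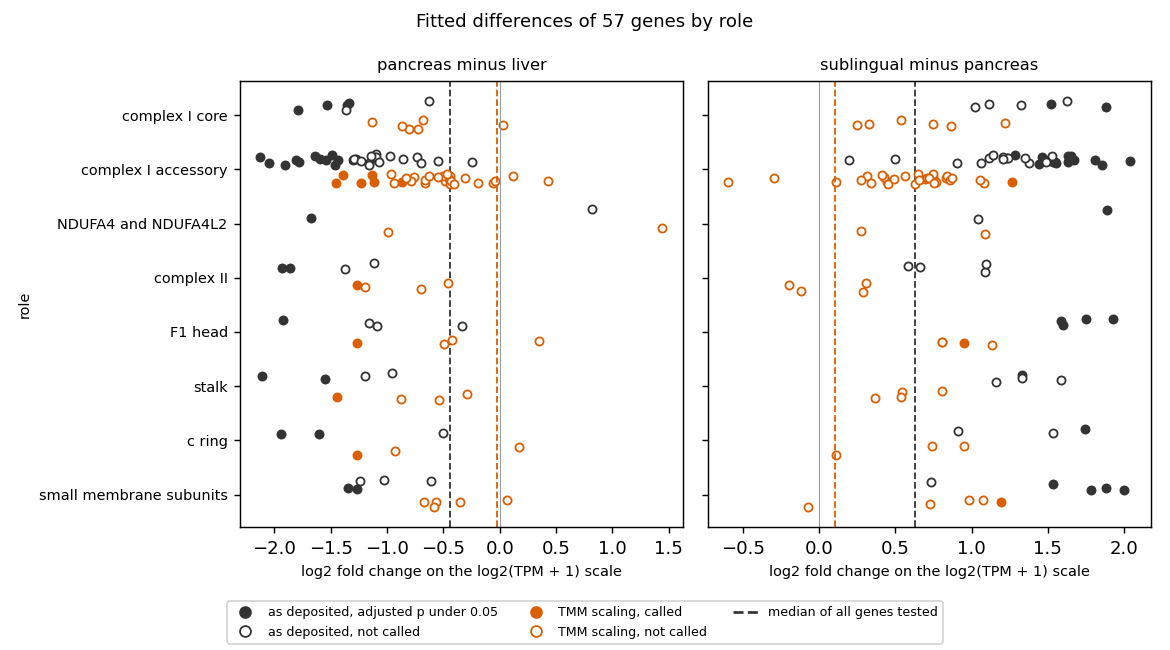
Fitted log2 fold changes on the log2(TPM + 1) scale for the 57 genes, split by role (rows), for pancreas minus liver (left) and sublingual gland minus pancreas (right). Filled points passed adjusted p under 0.05 in limma, open points did not, black is TPM as deposited, orange is TMM scaling, and dashed lines mark the medians of all genes tested (-0.44 and -0.02 on the left, 0.63 and 0.10 on the right).

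Because both genes of a ratio come from the same library, ratios do not depend on scaling. The pairs below were chosen after their values were seen and are given as description. ATP5MC3 divided by ATP5MC2 was 0.764, 0.564, 0.573, 0.707 and 0.709 in pancreas and 1.80, 1.99, 1.82, 1.85 and 1.54 in liver, or 0.663 ± 0.090 against 1.80 ± 0.16 (SD, n = 5 each). The pancreas held more ATP5MC2 than ATP5MC3 in 5 of 5 animals and the liver more ATP5MC3 in 5 of 5. The gland means lay between at 1.27 ± 0.40 in parotid, 1.27 ± 0.43 in submandibular and 1.22 ± 0.31 in sublingual gland (SD, n = 5 each), with the parotid and submandibular values of baboon 2, 1.93 and 1.95, inside the liver range. SDHB divided by ATP5F1A was 1.18, 1.22, 1.31, 1.37 and 1.30 in liver, a mean of 1.28 ± 0.08 (SD, n = 5). It was 0.746 ± 0.118 in pancreas, 0.445 ± 0.064 in parotid, 0.492 ± 0.072 in submandibular and 0.382 ± 0.159 in sublingual gland (SD, n = 5 each). Each of the 20 other libraries was below each liver library in this ratio, and the library rich in muscle genes, at 0.337, was within the range of the other sublingual libraries. SDHC divided by SDHB ran the other way, at 0.541 ± 0.111 in liver and 0.904 ± 0.138 in pancreas (SD, n = 5 each), with no overlap. NDUFB8 divided by NDUFS3 was 5.42 ± 0.99 in liver and 1.90 ± 0.16 in pancreas (SD, n = 5 each), and the lowest liver value of 4.20 exceeded every gland value, the highest of which was 3.92.

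**Figure D3:**
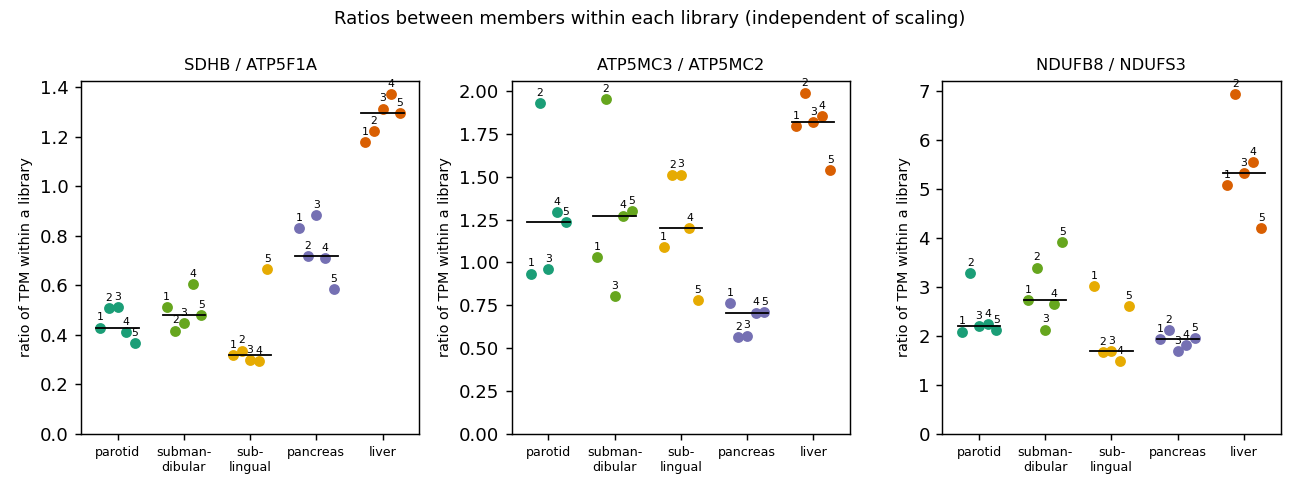
Ratios of TPM within each library for SDHB to ATP5F1A, ATP5MC3 to ATP5MC2 and NDUFB8 to NDUFS3, with points numbered by baboon and bars at the tissue median. Liver is above every other library in the left and right panels, and in the middle panel all 5 pancreas libraries are below 0.78, the lowest sublingual value.

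Sublingual gland differed from pancreas in the other direction. As deposited, 28 of 57 genes were higher in sublingual gland and none lower (limma, 14991 genes tested), with 7.13% of all genes called higher, and the median log2 fold change was 1.49 over members and 0.63 over all genes. In 30 of 57 genes all 5 sublingual libraries were above all 5 pancreas libraries, against 15.6% of all tested genes. After TMM scaling 3 members were higher, all 3 among the 28, against 6.71% of all genes, and the member median was 0.69 against 0.10. With TMM scaling and without the 5 libraries that stood apart, the sublingual library of baboon 2 among them, 1 member, NDUFB3, was higher and 1, NDUFV3, lower (-1.36, against 0.19 and not called as deposited), against 14.1% of all genes called higher and 14.3% lower, and the medians were 0.18 and 0.03. Without the animal term 14 genes were called (24.6% of members, against 5.02% of all genes called higher). The count of 28 was 2 without baboon 1, 19 without baboon 2, 1 without baboon 3, 17 without baboon 4 and 10 without baboon 5. The member share was 1.75% without baboon 3, against 1.49% of all genes called higher, and 3.51% without baboon 1, against 0.922%. Without baboon 2 it was 33.3%, against 18.9%. Leaving out baboon 4 gave 29.8%, against 2.1%, and leaving out baboon 5 gave 17.5%, against 3.46%.

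The sublingual library of baboon 2 was the highest of all 25 libraries for 46 of 57 genes as deposited and for 54 of 57 after TMM scaling. The share of all genes that were highest in this library was not computed, so the counts cannot be called particular to the members. This was also the library with 107900 TPM of skeletal muscle markers, whose part in the level was not tested beyond leaving the library out. ATP5F1B there was at 503 TPM, against 131, 180, 62.8 and 102 TPM in the sublingual glands of baboons 1, 3, 4 and 5 and 27.7 to 48.6 TPM in pancreas. The groups did not overlap. Its fitted change was 1.93 (SE 0.50, limma adjusted p = 0.0194) as deposited and 1.14 with an adjusted p of 0.0820 after TMM scaling (0.00109 to 0.200 over the alternatives). All 4 genes of the F1 head were called higher as deposited, and 1, ATP5F1E, after TMM scaling.

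NDUFB3, an accessory subunit of the complex I membrane arm, was the member furthest above pancreas. Its sublingual levels were 136, 175, 54.0, 174 and 31.0 TPM and its pancreas levels 31.3, 23.4, 17.9, 34.0 and 10.98 TPM. The sublingual value of baboon 5 lay inside the pancreas range, although it was above that animal's own pancreas. NDUFB3 had a fitted change of 2.04 (SE 0.43, limma adjusted p = 0.00429) as deposited, 1.26 (SE 0.36, adjusted p = 0.0209) after TMM scaling and 0.84 with TMM scaling and without the 5 libraries, and the adjusted p was at most 0.0454 over 15 alternatives. The squamous-rich libraries of baboons 1 and 4 were 2 of the 3 high ones. Whether squamous cells bear on NDUFB3 was not tested. ATP5MG, subunit g of the membrane part of ATP synthase, was at 297, 820, 512, 207 and 380 TPM in sublingual gland and 85.1 to 106 TPM in pancreas. No library overlapped, and the fitted change was 2.00 (SE 0.47, limma adjusted p = 0.00985), and of 1.20 with an adjusted p of 0.0286 after TMM scaling (0.000117 to 0.0799 over the alternatives). NDUFA4 (1.89), NDUFS1 (1.88), ATP5F1E (1.75), ATP5MC3 (1.75), NDUFS8 (1.52) and ATP5PD (1.33) were also called as deposited. No gene of complex II was called, with SDHA at 0.66 (SE 0.43, limma adjusted p = 0.273) and SDHB at 0.58 (SE 0.50, adjusted p = 0.402).

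**Figure D4:**
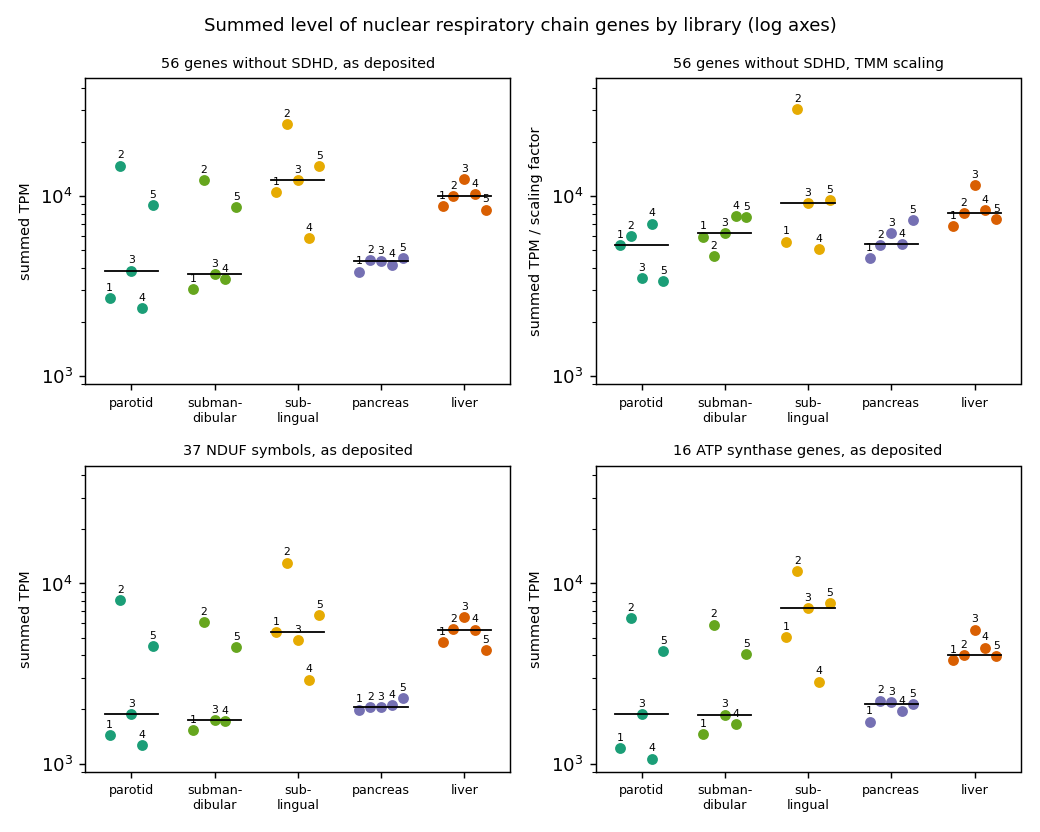
Summed TPM by library (log axes, points numbered by baboon, bars at the tissue median) for the 56 genes without SDHD as deposited and after TMM scaling, and for the NDUF and ATP synthase symbols as deposited. Baboons 2 and 5 are above baboons 1, 3 and 4 in parotid and submandibular gland as deposited and not after TMM scaling, and the sublingual library of baboon 2 is highest in all 4 panels.

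With all libraries in the fit, parotid and submandibular gland did not differ detectably from pancreas in any member. None of 57 genes was called in parotid against pancreas (limma, unadjusted p under 0.05 in 0 of 57), against 3.92% of all genes called in either direction. In submandibular gland against pancreas the count was also 0 (unadjusted p under 0.05 in 1 of 57), against 4.17% of all genes. The member medians were 0.28 and 0.36 as deposited and -0.20 and 0.20 after TMM scaling, so the direction in parotid turned with the scaling. Without the 5 libraries that stood apart, and without scaling, both medians were below 0, at -0.48 in parotid and -0.28 in submandibular gland, and those of all genes were -0.20 and -0.33. That fit called 4 members lower in parotid (6.36% of all genes) and 1 lower in submandibular gland (8.7%). After TMM scaling both counts were 0 (unadjusted p under 0.05 in 2 and 1 of 57), against 11.6 and 12.2% of all genes.

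Within each of these 2 glands the libraries split. Summed over the 56 genes without SDHD, parotid held 2711, 14770, 3854, 2381 and 8887 TPM in baboons 1 to 5, and submandibular gland held 3052, 12250, 3687, 3446 and 8643 TPM. In both glands baboons 2 and 5 were high and baboons 1, 3 and 4 low. This order held in 55 of 57 genes in parotid, the exceptions being NDUFA4L2 and NDUFB3, and in 55 of 57 in submandibular gland, the exceptions being NDUFB3 and SDHD. It also held in 71.2% of all tested genes in parotid and 70.1% in submandibular gland. The mean of the high libraries was 4.09 and 3.12 times that of the low ones in the median gene. The high libraries were those with smaller shares in the 10 highest genes and with adipocyte or lymphoid markers. After TMM scaling the order held in 0 and 2 members, against 19.1 and 20.9% of all genes, and the median ratios were 0.89 and 0.92. The same sums became 5328, 5986, 3516, 7024 and 3382 in parotid and 5957, 4653, 6230, 7773 and 7613 in submandibular gland.

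Each gland was then compared with liver, with the same 5 liver libraries in every comparison and in that of pancreas. As deposited, 14 members were lower in parotid than in liver (limma, 11.3% of all genes called lower) and 15 in submandibular gland (14.4%), and none was higher. The member medians were -1.03 and -1.02, and those of all genes 0.01 and -0.27. After TMM scaling the member medians were -0.84 and -0.51, and those of all genes 0.04 and 0.01. After TMM scaling 17 members were lower in parotid (17.6% of all genes), whereas in submandibular gland 3 were lower (17.2%) and 1, NDUFA4L2, was higher (12.3% of all genes called higher). The share in submandibular gland was then below that of all genes. Without the animal term the counts were 5 (8.77% of members, 10.4% of all genes) and 6 (10.5 and 12.9%). Leaving out baboon 1, 2, 3, 4 or 5 gave 1, 30, 1, 1 and 16 genes in parotid and 2, 30, 2, 3 and 16 in submandibular gland. Without baboon 1, 3 or 4, the 1.75% of members called in parotid and the 3.51 to 5.26% in submandibular gland were below the share of all genes called lower, which was 7.27 to 8.10% and 8.89 to 9.09%. Without baboon 2 the member share was 52.6% in both, against 14.8 and 22.4% of all genes. Leaving out baboon 5 gave 28.1% in both, against 12.9 and 14.9%.

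SDHA was at 21.1, 89.5, 38.3, 11.9 and 78.3 TPM in parotid and 18.1, 95.1, 34.8, 17.5 and 57.3 TPM in submandibular gland, against 89.0 to 178 TPM in liver. The gland libraries of baboon 2 reached the lowest liver library and no other did, and within each animal the gland was below the liver in 5 of 5. The log2 fold change was -1.84 (SE 0.43, limma adjusted p = 0.00338) in parotid and -1.88 (SE 0.43, adjusted p = 0.00259) in submandibular gland as deposited, and -1.66 and -1.38 after TMM scaling. The call was lost in 4 of 15 alternatives in parotid (adjusted p up to 0.0791) and in none in submandibular gland. SDHB was lower by like amounts, at -1.91 (SE 0.50, limma adjusted p = 0.00881) in parotid and -1.76 (SE 0.50, adjusted p = 0.0143) in submandibular gland, and after TMM scaling it was called in parotid alone. ATP5PD was at 25.2, 166, 43.4, 21.7 and 88.1 TPM in parotid and 26.7, 140, 35.8, 31.9 and 85.7 TPM in submandibular gland, against 149 to 298 TPM in liver. Here the parotid of baboon 2 alone passed a liver library. The log2 fold change was -2.10 (SE 0.41, limma adjusted p = 0.000641) in parotid and -2.09 (SE 0.41, adjusted p = 0.000615) in submandibular gland, and the call held in all 15 alternatives in both. ATP5F1A, by contrast, was at -0.42 and -0.41 (limma adjusted p = 0.653 and 0.663).

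Sublingual gland and liver differed in few members as deposited. ATP5F1E was higher (1.42, SE 0.44, limma adjusted p = 0.0284) and SDHA lower (-1.28, SE 0.43, adjusted p = 0.0422), which makes 2 of 57 against 16.1% of all genes called in either direction. ATP5F1E stood at 1124, 1131, 2082, 670 and 3071 TPM in sublingual gland and 444 to 728 TPM in liver, and only baboon 4 lay within the liver range. SDHA stood at 33.7, 179, 71.1, 27.6 and 42.9 TPM in sublingual gland, with the muscle-rich library of baboon 2 at the level of the highest liver library and the other 4 below all liver libraries. With TMM scaling and without the 5 libraries, 18 members were lower than in liver and 2 higher, with 22.2% of all genes called lower and 19.2% higher. SDHA (-1.87) and SDHB (-1.97) were both among the 18 in that fit. With TMM scaling alone 5 members were called, against 30.9% of all genes.

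Between glands no member was called. In parotid against submandibular gland the share of all genes called was 0% and the member median -0.01 (unadjusted p under 0.05 in 0 of 57). Against sublingual gland the share of all genes called was 0.113% for parotid and 0.0667% for submandibular gland. Member medians there were -1.04 and -1.06, and unadjusted p under 0.05 was reached in 33 and 34 of 57 genes, and none passed after adjustment in limma. Without the 5 libraries and without scaling, 53 members were lower in parotid and 54 in submandibular than in sublingual gland, against 53.5 and 63.3% of all genes, and with TMM scaling as well both counts were 0. In the submandibular comparison the median was 0.10 with TMM scaling and without the 5 libraries, a turn of direction.

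SDHD did not follow the other genes of complex II. It ranged from 168 to 11690 TPM over the 25 libraries, while SDHA, SDHB and SDHC ranged from 11.9 to 179 TPM. SDHD was at 919, 557, 11690, 2847 and 726 TPM in sublingual gland, at 605, 975, 644, 613 and 1197 TPM in pancreas, and at 1796, 1721, 1662, 1659 and 3825 TPM in liver. The sublingual library of baboon 3 and the liver library of baboon 5 were far above the others of their tissue. Divided by SDHB it was 11.2 to 57.4 in liver and 3.77 to 349 in sublingual gland. No comparison called SDHD with TPM as deposited (pancreas against liver -1.37, SE 0.71, limma adjusted p = 0.206). Over the 25 libraries, its log2(TPM + 1) correlated with that of LSM12, an RNA-binding protein gene outside the respiratory chain, at Pearson r = 0.995, the highest of 13214 genes compared, and with that of P3H3, a collagen prolyl hydroxylase gene, at 0.991. The correlation was 0.608 with SDHA, which ranks 2520th, 0.312 with SDHB and 0.277 with SDHC. LSM12 was at 7451 TPM in the sublingual library of baboon 3, where SDHD peaked, and 2070 TPM in the liver of baboon 5. These correlations share libraries, depth and tissue composition and are descriptions of pairs chosen after seeing the values. How reads were shared between SDHD, or other members, and similar sequences elsewhere in the genome was not tested, and sums are therefore given without SDHD.

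**Figure D5:**
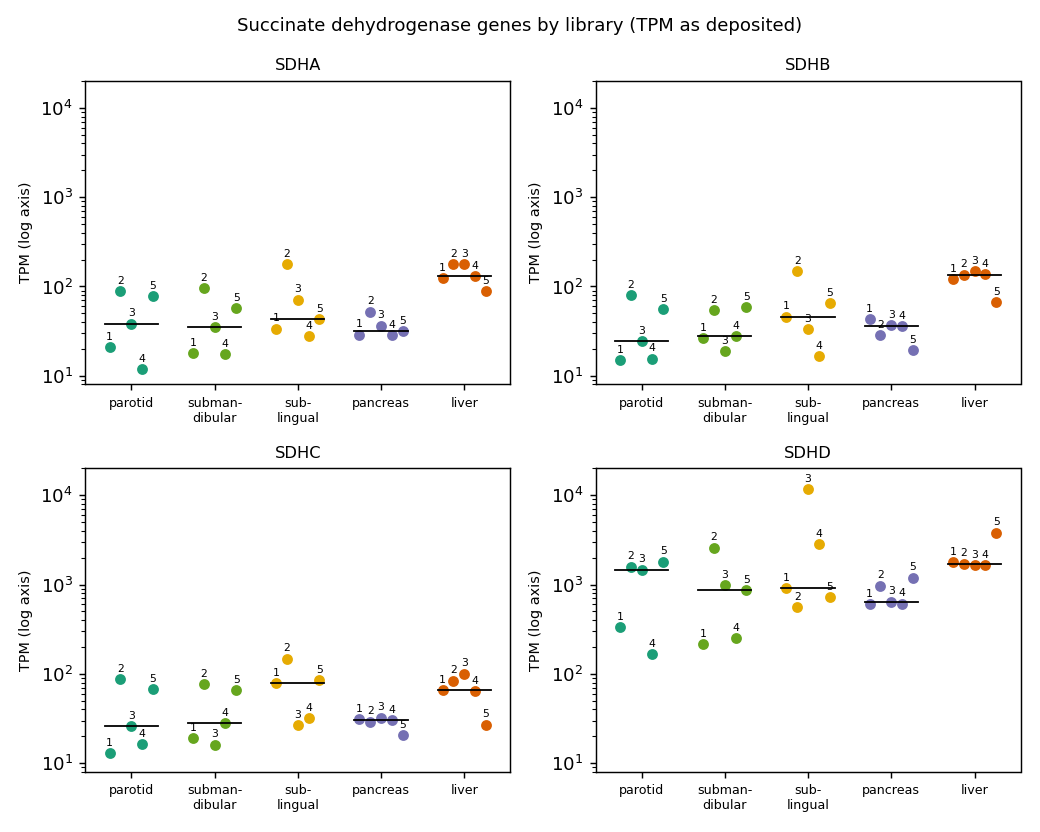
TPM by library (log axis, points numbered by baboon, bars at the tissue median) for the 4 genes of succinate dehydrogenase. SDHA and SDHB are highest in liver apart from single gland libraries of baboon 2, and SDHD lies on another level (168 to 11690 TPM) with its maximum in the sublingual gland of baboon 3.

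NDUFA4L2, a paralog of NDUFA4 known to be induced by hypoxia, was the other gene with its own pattern. It was at 10.9, 12.0, 20.1, 3.46 and 7.97 TPM in liver and at 18.1, 10.9, 18.4, 17.9 and 25.5 TPM in pancreas. In the glands single libraries stood out, at 183 TPM in the parotid of baboon 2, 152 TPM in the submandibular gland of baboon 2 and 196 TPM in the sublingual gland of baboon 1. NDUFA4L2 was not called against liver in any tissue as deposited. After TMM scaling it was higher than in liver in submandibular (1.73, SE 0.63, limma adjusted p = 0.0453) and sublingual gland (1.72, SE 0.63, adjusted p = 0.0459). The adjusted p was 0.309 and 0.126 as deposited, and 0.359 and 0.0399 with TMM scaling and without the 5 libraries. Its ratio to NDUFA4 was 0.027 ± 0.013 in liver and 0.147 ± 0.059 in pancreas (SD, n = 5 each), with no overlap.

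The other members correlated with one another across libraries. The Pearson correlation of each gene's log2(TPM + 1) with the median of the other members over 25 libraries had a median of 0.92 and was at least 0.8 in 50 of 57 genes. It was lowest for NDUFA4L2 (0.35) and SDHD (0.49), followed by ATP5F1E (0.68) and NDUFB3 (0.68), and highest for ATP5F1C and ATP5MC3 (0.987 each). After TMM scaling the median was 0.85 and 40 of 57 genes reached 0.8. The points share library composition, so these values describe the set and carry no test. In liver, baboon 5 was the lowest of 5 animals for 41 genes and the highest for 4, namely ATP5PD, NDUFA3, NDUFB7 and SDHD. In the pancreas of the same animal 23 genes were lowest and 20 highest of 5. These counts are from TPM as deposited, and the shares of all genes were not computed. The 10 highest genes held 35.9% of the liver library of baboon 5 and 23.4 to 28.2% of the other livers. Baboon 5 is also the male. Whether either bears on the counts was not tested.

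Genes with neighbouring functions were counted from lists. The 13 mitochondrially encoded subunits made up 23.3 ± 7.0% of the TPM in liver, 7.11 ± 1.64% in pancreas, 6.90 ± 5.74% in parotid, 5.73 ± 3.08% in submandibular and 17.5 ± 11.2% in sublingual gland (SD, n = 5 each). Against liver, 10 of 13 were lower in pancreas as deposited and 0 after TMM scaling, whereas 13 of 13 were lower in parotid under both. In submandibular gland 12 were lower as deposited and 6 after TMM scaling, and in sublingual gland 0 under both. The shares of all genes called lower than in liver were 11.3 and 17.6% in parotid, as deposited and after TMM scaling. They were 14.4 and 17.2% in submandibular and 9.91 and 17.7% in sublingual gland. COX1, the catalytic subunit of complex IV, was at 13860 ± 2692 TPM in pancreas and 48920 ± 14970 TPM in liver (SD, n = 5 each, log2 fold change -1.79, limma adjusted p = 0.0193, and -1.11 with 0.171 after TMM scaling). The lists below are small, and 15.1% of all genes were called lower in pancreas than in liver as deposited and 15.3% after TMM scaling. Of 13 citric acid cycle genes, 3 were lower in pancreas than in liver as deposited and 2 after TMM scaling. FH, the enzyme after succinate dehydrogenase in the cycle, was at 5.55 ± 0.60 TPM in pancreas and 38.2 ± 7.0 TPM in liver (SD, n = 5 each), a fitted change of -2.57 (SE 0.42, limma adjusted p = 6.28e-05). Of 23 assembly factor genes 4 were lower as deposited, NDUFAF1 and NDUFAF3 of complex I among them. After TMM scaling 3 were lower and 1, TMEM126B, which also serves complex I assembly, was higher. Of 11 regulators of mitochondrial biogenesis 3 were lower as deposited and 2 after TMM scaling. The 3 were POLRMT, the mitochondrial RNA polymerase (-1.93, limma adjusted p = 0.00136), TFB2M and PPARGC1A, the last at 1.48 TPM in liver and 0.193 TPM in pancreas. Of 7 carriers and porins 1, VDAC1, was lower under both, and 1, SLC25A6, an ADP/ATP carrier, was higher after TMM scaling (1.89, against 1.22 and not called as deposited). Neither of the 2 nuclear complex IV genes in the table, COX5A and COX8A, was called, while NDUFAB1, the acyl carrier subunit of complex I, and ATP5IF1, the inhibitor of ATP synthase, were both lower as deposited. Cytosolic ribosomal protein genes, a list set beside the members, had a median of 0.46 in pancreas against liver as deposited with 0 of 78 higher and 1 lower. After TMM scaling 61 of 78 were higher and 1 lower, against 10.8% of all genes called higher, which is opposite in direction to the members under the same scaling.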

How the data were processed

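Per the labels' protocols, total RNA from 3 sections of 30 µm was DNase-treated and sequenced as paired reads of 150 bases. The authors deposited kallisto TPM per gene, named so in the table. Per the submitters' processing notes, FastQC, MultiQC, cutadapt, HISAT2, kallisto, SAMtools, featureCounts and DESeq2 were used, with versions, build and index not given in the sources used here. Libraries summed to between 999999.5 and 1000000.6 TPM, so depth is unknown and no counting interval is given. A gene entered the tests if its tissue mean reached 1 TPM in any tissue, as all 57 members did. limma 3.58.1 (R 4.3.3; trended eBayes) was fitted to log2(TPM + 1) of the 25 libraries, with terms for tissue and animal, p-values were adjusted by Benjamini-Hochberg over all genes, and calls used adjusted p under 0.05 with no fold limit. TMM (unweighted, trimming 30% of log ratios and 5% of abundances) and median-of-ratios factors were computed from the TPM. The fit was also run on simulated data, read for pancreas against liver alone. Every simulated tissue had the spread of pancreas and liver and no difference in composition. The simulation therefore does not cover the gland comparisons or the unequal spread of the real libraries.

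The labels pair the libraries by animal: deviations from tissue means correlated at 0.167 on average over 50 pairs from the same animal and at -0.04 over 200 other pairs. Genes were named if they belong to the complex I core, complex II, F1 head, c ring or stalk, are NDUFA4 or NDUFA4L2, or were among the 4 called genes furthest up or down in a main comparison. The members, lists and comparisons were chosen with earlier results of these data known. Alternatives were scaling, pseudocount, filter, block, tissues in the fit and libraries left out. The choice of the submandibular library of baboon 2 as 1 of the 5 that stand apart, and the fit that joins TMM scaling with leaving those 5 out, were made after seeing the data. A gene is counted with the members but is not reported here by itself.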

Additional observations from a re-analysis of the deposited data

Results flagged for a closer look

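The 5 libraries of each tissue were taken as a group for 26 named genes and for sums (155 groups). In 24 groups a library's gap to its nearest neighbour exceeded 0.71 of the whole range. That limit is set to flag about 1 in 20 groups by chance. The members correlate across the same libraries, so flags come together and 24 cannot be read against that rate. Of the 24, 10 were the sublingual library of baboon 2, which held the skeletal muscle markers: ATP5F1A (439 TPM), ATP5F1B (503), ATP5F1C (200), ATP5MC1 (520), NDUFS1 (52.8), NDUFS3 (192), NDUFS8 (146), NDUFV1 (191), NDUFV2 (240) and SDHA (179) were far above the other 4 sublingual libraries. In the liver of baboon 5, ATP5F1A (51.4 TPM) and ATP5F1B (41.2) were far below and SDHD (3830) far above the other livers. In the liver of baboon 3, ATP5F1E (728 TPM) and ATP5MG (256) were high. In the pancreas of baboon 5, ATP5PD (80.9 TPM) was high while ATP5PO (24.2), NDUFB8 (47.1) and SDHC (20.5) were low. The remaining ones were NDUFA4L2 (183 TPM) and NDUFB3 (120) in the parotid of baboon 2, ATP5PF (271) in the submandibular gland of baboon 2, and NDUFA4L2 (196) in the sublingual gland of baboon 1 and SDHD (11700) in that of baboon 3.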

How the results depend on the processing

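The pseudocount (0.1), no filter, a filter of 5 TPM and a fold limit left every count of called members within 1.5 times. The animal term (replicate block) is part of the design. Without the replicate block the count was 14 for sublingual gland against pancreas (5.02% of all genes called higher). Against liver it was 16 for pancreas, 5 for parotid, 6 for submandibular and 0 for sublingual gland. Of all genes, 13.5, 10.4 and 12.9% were called lower in the first 3, and 14.7% in either direction in the last. The other counts were 0 either way. With TMM scaling the count was 3 for sublingual gland against pancreas. Against liver it was 10 for pancreas, 4 for submandibular and 5 for sublingual gland. In that order, 6.71% of all genes were called higher, 15.3% lower, and 29.6 and 30.9% in either direction. With median-of-ratios scaling the counts were 4, 9, 5 and 5. The shares of all genes were 7.04% higher, 14.8% lower, and 29.4 and 31.3% in either direction. Medians then moved to -0.63 and -0.59 in the pancreas to liver comparison, -0.33 and -0.35 for parotid against submandibular, and -0.44 and -0.47 for submandibular against sublingual gland. Of the named genes 3 turned direction in pancreas against liver, under TMM scaling, under median-of-ratios scaling and under TMM scaling without the 5 libraries that stand apart respectively: ATP5F1E to 0.35, 0.39 and 0.35, ATP5MC2 to 0.17, 0.21 and 0.17, and NDUFS3 to 0.031, 0.069 and 0.031. A change of scale for the whole library moves all its genes together by construction.

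With only the compared tissues in the fit, 54 members were lower in pancreas than in liver (59.5% of all genes called lower). In sublingual gland 11 were higher than in pancreas (7.35% of all genes called higher). Against liver, 1 was lower in parotid (1.75% of members, 9.46% of all genes) and 4 in submandibular gland (7.02 and 15.5%). In sublingual gland against liver 0 were called (14.9% of all genes in either direction). Without the 4 libraries planned for removal, 43 members were lower in pancreas than in liver, against 22.6% of all genes. Against liver, 43 were lower in parotid (21.5%) and 30 in submandibular gland (21.3%). In sublingual gland 4 were called against liver in either direction (29.0%). Against sublingual gland, 41 were lower in parotid (21.7%) and 12 in submandibular gland (12.4%). The parotid against submandibular median was -0.45. Without all 5, 49 members were lower in pancreas than in liver (35.3% of all genes called lower). In parotid 54 were lower than in liver (40.6%) and in submandibular gland 53 (48.3%). In sublingual gland 12 were called against liver in either direction (39.6%). Against sublingual gland, 53 were lower in parotid (53.5%) and 54 in submandibular gland (63.3%). In sublingual gland 46 were higher than in pancreas (48.5% called higher). Against pancreas, 4 were lower in parotid (NDUFA13, NDUFB11, NDUFS4 and NDUFV3, 6.36% of all genes) and 1 in submandibular gland (NDUFV3, 8.7%). These genes are named because the counts are small. With TMM scaling as well, 2 were called in sublingual against pancreas, against 28.3% of all genes in either direction. The counts were 20 in sublingual against liver (41.4%) and 1 in submandibular against pancreas (15.1%). Medians were 0.18 for sublingual against pancreas, -0.63 for pancreas against liver, -0.20 for parotid and 0.10 for submandibular against sublingual gland. Each fit estimates a gene's spread from all its libraries, so the counts also move with the libraries in the fit. What else bears on these differences was not tested.

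Leaving out each animal in turn gave counts of 1 to 19 for sublingual gland against pancreas, 4 to 28 for pancreas, 1 to 30 for parotid, 2 to 30 for submandibular and 0 to 4 for sublingual gland against liver, 0 to 10 for parotid and 0 to 18 for submandibular against sublingual gland, the highest of each without baboon 2, and 0 to 0 for the other 3. Without baboon 2, 2.6% of all genes were called lower in parotid than in sublingual gland, against 17.5% of members. In submandibular against sublingual gland these shares were 18.5 and 31.6%. In sublingual gland against liver 21.7% of all genes were then called in either direction, against 7.02% of members. Medians ran from -0.05 to 0.56 for parotid, -0.001 to 0.56 for submandibular and 1.13 to 1.74 for sublingual gland against pancreas. Against liver they ran from -1.32 to -1.19 for pancreas, -1.34 to -0.72 for parotid, -1.32 to -0.77 for submandibular and -0.15 to 0.41 for sublingual gland. Between glands they ran from -0.09 to 0.09 for parotid against submandibular, -1.27 to -0.84 for parotid against sublingual and -1.28 to -0.92 for submandibular against sublingual gland. TPM hold no depth, so the error of low values such as those of NDUFS1 cannot be split into counting and animal parts.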
